A study of Mus musculus with 6 samples.

Results

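The contractile genes of muscle were followed in whole lungs of balb/c mice, on day 14 (D14) and on day 0 (D0) relative to the orthotopic implantation of K7M2 cells, which are mouse osteosarcoma cells able to metastasise to lung. They are the rows whose symbol names a myosin heavy or light chain, a troponin, a tropomyosin, a muscle actin or one of a stated set of Z disc, M band and calcium handling proteins. The symbols selected 63 of 29753 rows. The rule used no measured value, but it and the muscle types were set with earlier results of these data known. D14 and D0 had 3 libraries each, labelled as biological replicates from independent experiments. The D0 mice carry the same implantation label as the D14 mice, and no D14 lungs without implanted cells are among the samples, so effects of the tumour, the procedure, age and the day of collection cannot be told apart. Neither the age of the mice nor the number of mice behind a library is labelled, and the p-values therefore describe variation among these libraries.

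Striated muscle, skeletal or cardiac, contracts through sarcomeres, in which myosin heavy and light chains pull on actin filaments that troponin and tropomyosin gate in response to calcium. Skeletal fibres, atrial and ventricular heart muscle and smooth muscle use different paralogs of most of these proteins, so that the isoform tells the muscle type. Smooth muscle of airways and vessels is a normal part of the lung. In the mouse, cardiac muscle continues from the left atrium along the pulmonary veins into the lung, while skeletal muscle lies outside it, for example in the chest wall, the diaphragm and the oesophagus.

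By known tissue use, 23 of the genes were taken as skeletal, 16 as cardiac, 6 as shared by both striated types, 5 as smooth muscle and 13 as broad, that is, also made in non-muscle cells. Several of the cardiac genes, such as Myh7, Myl2, Myl3 and Tnnc1, are also used by slow skeletal fibres. Levels are CPM, counts scaled to library size with TMM factors, and a fold change is a log2 ratio of D14 over D0 fitted by edgeR's quasi-likelihood test, and adjusted p-values follow Benjamini and Hochberg across all genes tested. Library totals ran from 14878101 to 17385006 counts, and 17686 genes, 58 of the 63 muscle genes among them, passed the filter on low counts. In a library with no count of a gene, 3 counts would correspond to 0.174 to 0.211 CPM, a limit for counting error only. The tissue label was matched by its markers, since Sftpc, the surfactant protein C of type II cells, stood at 12870 to 18300 CPM at D14 and 12450 to 34630 CPM at D0.

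Cardiac genes were mostly higher and skeletal genes mostly lower at D14, and no muscle gene passed the test. At an adjusted p of 0.05, 0 of the 58 tested muscle genes were called by edgeR, where 0.0339% of all tested genes were, 0.017% as higher and 0.017% as lower. The count of called muscle genes was also 0 with RLE factors (0.0339% of all genes called), with no scaling factors (0.0226%), with no filter on low counts (0.0874%), with the transcript length trend removed (0.0848%) and with the replicate number as a block (0%). It was 0 as well without D0 replicate 1 (0.0166%), 2 (0.00552%) or 3 (0.121%) and without any 1 of the D14 libraries (0%). At an unadjusted p under 0.05 stood 18 muscle genes, where 12.6% of all tested genes did. Of these 10 were higher at D14, where 5.48% were, and 8 lower, where 7.09% were. DESeq2 on the same counts called 5 muscle genes, Myh6, Ryr2, Pln, Ttn and Atp2a2, all higher at D14, where it called 1.32% of its genes, 0.778% as higher and 0.538% as lower. The CPM ranges of D14 and D0 did not overlap for 12 tested muscle genes with D14 above, where 10.9% of all tested genes showed this, and for 5 with D14 below, where 10.7% did (21.6% either way). Cardiac genes had a median log2 fold change of 0.85 and skeletal genes one of −1.16, while smooth muscle genes stood at −0.04 and broad genes at −0.09, beside −0.03 over all tested genes.

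**Figure D1:**
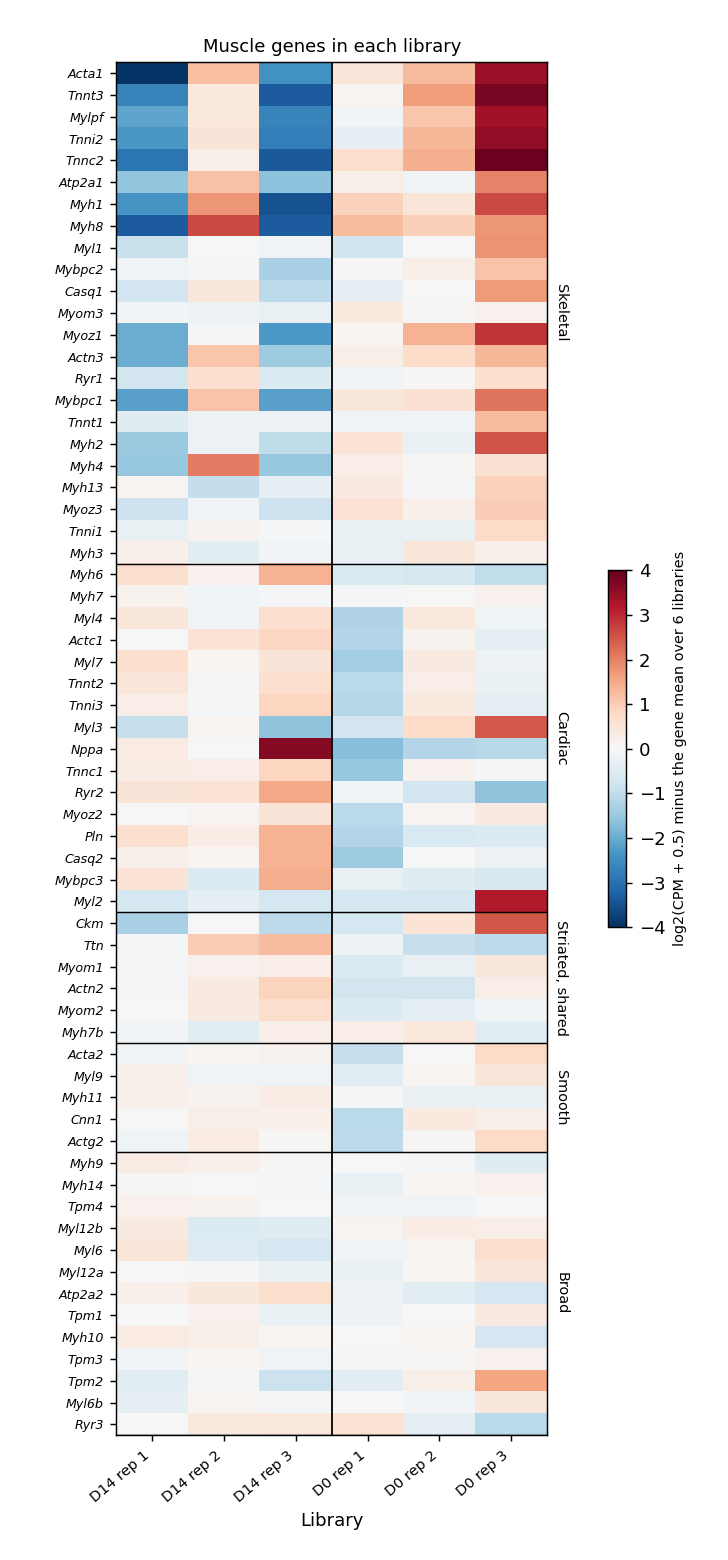
Levels of the 63 muscle genes in each library, as log2(CPM + 0.5) minus the mean of that gene over the 6 libraries, with genes ordered by muscle type and then by mean CPM. Most skeletal genes are lowest in D14 replicates 1 and 3 and highest in D0 replicate 3, whereas most cardiac genes are highest in D14 replicate 3 and lowest in D0 replicate 1.

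Most skeletal muscle genes were low in D14 replicates 1 and 3, some of them at 0, and higher in D14 replicate 2 and in the D0 libraries. Summed over the 23 genes they reached 30.6, 237 and 31.4 CPM in the D14 libraries, against 147, 235 and 969 CPM in the D0 libraries. D14 replicate 2 thus lay beside D0 replicate 2, and the groups overlapped. In bulk samples, fewer cells of a type and less RNA per cell cannot be told apart. Of the 20 tested genes 19 had a negative fold change and 1, Myh4, a positive one, with 0 past the test. The standard deviation of log2 CPM within groups was pooled over D14 and D0 for each gene. Its median over the 20 tested skeletal genes was 1.66, above the value of 99.1% of all tested genes. A library at 0 was found for 9 of the 23 genes, and among the others the highest library exceeded the lowest by 1.72-fold (Myom3) to 290-fold (Tnnt3).

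Acta1, the actin of the skeletal thin filament, was the most abundant of them, with 1.51, 70.0 and 5.19 CPM at D14, against 42.2, 72.5 and 327 CPM at D0. The muscle actins Acta1, Actc1, Acta2 and Actg2 are near-identical in coding sequence, so their counts may share reads. The 2 lowest libraries for Acta1 were of D14, but D14 replicate 2 stood above D0 replicate 1. The fold change was −2.53 (SE 1.42; adjusted p = 0.471), and −1.16 without D0 replicate 3 or −5.46 without D14 replicate 2. The fast troponins, which switch the thin filament on when calcium rises, were also highest in D0 replicate 3 and lowest in D14 replicates 1 and 3. Tnnt3, the tropomyosin-binding subunit, had 0.985, 12.2 and 0.449 CPM at D14, against 9.71, 29.8 and 130 CPM at D0 (log2 ratio −3.63, SE 1.39; adjusted p = 0.380). Tnni2, the inhibitory subunit, had 1.39, 13.1 and 0.897 CPM at D14, against 7.04, 23.2 and 109 CPM at D0 (−3.18, SE 1.32; adjusted p = 0.395). For both, D14 replicate 2 was above D0 replicate 1 and below the other D0 libraries. The fold change of Tnnt3 was −2.12 with D0 replicate 3 left out and −6.27 with D14 replicate 2 left out. That of Tnni2 was −1.56 and −5.32 under the same omissions. Tnnc2, the calcium-binding subunit, had 3, 86 and 0 counts at D14, against 134, 211 and 1103 counts at D0, and here the groups did not overlap (−4.13, SE 1.53; adjusted p = 0.373). Without D0 replicate 3 that fold change was −2.50. The slow troponins Tnnt1 and Tnni1 were low, Tnnt1 at 1.39 to 1.79 CPM at D14 and 1.86 to 5.83 CPM at D0, and Tnni1 under the filter with 4 to 8 counts at D14 and 4 to 15 at D0.

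Among the motor proteins the fast light chain Mylpf had 2.09, 14.5 and 1.28 CPM at D14, against 9.94, 23.8 and 116 CPM at D0 (log2 ratio −3.07, SE 1.21; adjusted p = 0.385). Without D0 replicate 3 its fold change was −1.50, and without D14 replicate 2 it was −4.87. Myl1, the alkali light chain of fast fibres, varied less, with 4.23, 8.35 and 7.37 CPM at D14, against 4.59, 8.31 and 30.1 CPM at D0 (−1.11, SE 0.66; adjusted p = 0.486). Only D0 replicate 3 of the 6 libraries stood clear of the others in Myl1. The skeletal myosin heavy chains lie side by side on chromosome 11 (GRCm38), from Myh3 at 67078300 through Myh2, Myh1, Myh4 and Myh8 to the end of Myh13 at 67371586. They are near-identical over long stretches, so reads may be split between them. Myh1, the heavy chain of fast IIx fibres, had 10, 291 and 0 counts at D14, against 172, 115 and 491 counts at D0 (log2 ratio −1.44, SE 1.49; adjusted p = 0.680). Myh8, the perinatal heavy chain, had 0, 474 and 0 counts at D14, against 198, 144 and 233 counts at D0 (−0.30, SE 1.67; adjusted p = 0.946). Both had 10 or fewer counts in D14 replicates 1 and 3, while D14 replicate 2 held more Myh8 than any D0 library. The fold change of Myh1 was −0.45 without D0 replicate 3 and −5.81 without D14 replicate 2.

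Myh4, the heavy chain of fast IIb fibres, was found at 0, 85 and 0 counts at D14, against 21, 15 and 24 counts at D0 (log2 ratio 0.48, SE 1.45; adjusted p = 0.896). Myh2, that of IIa fibres, had 0, 11 and 3 counts at D14, against 27, 10 and 107 counts at D0 (−3.43, SE 1.19; adjusted p = 0.364). The mixture of isoforms thus differed between the libraries that held them. Myh8 made up 54.7% of the heavy chain counts in D14 replicate 2, against 44.5%, 46.9% and 26.0% in the D0 libraries, and Myh2 1.27%, against 6.07%, 3.26% and 11.96%. In D14 replicates 1 and 3 only 36 and 16 heavy chain counts remained, of which 21 and 11 were of Myh13, the extraocular heavy chain, which had 5 counts in D14 replicate 2 and 16 to 36 at D0. The embryonic chain Myh3 had 0 to 7 counts in any library and was not tested.

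**Figure D2:**
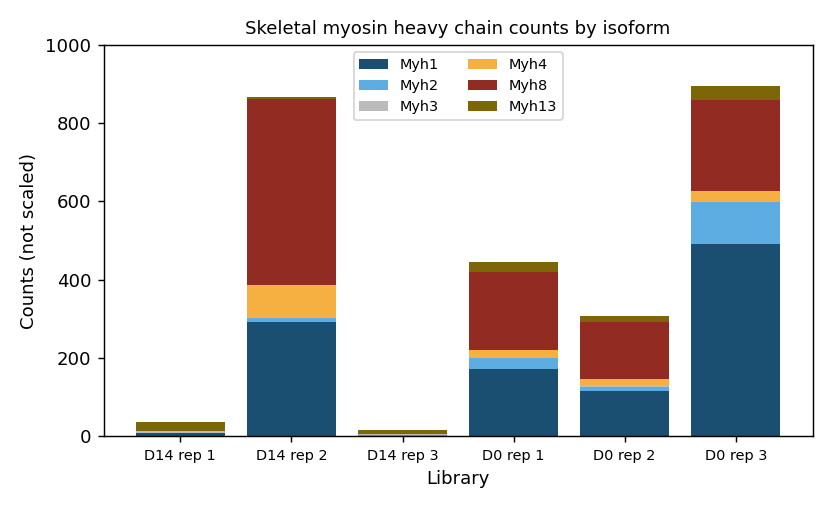
Unscaled counts of the 6 skeletal myosin heavy chain genes in each library, stacked by isoform. D14 replicate 2 and D0 replicate 3 hold a similar total, 866 and 895 counts, with more Myh8 in D14 replicate 2 (474) and more Myh1 (491) and Myh2 (107) in D0 replicate 3.

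The promoters of Acta1 and of the 2 most counted heavy chains are shown because all 3 genes were lowest in D14 replicates 1 and 3, while Acta1 and Myh1 peaked in D0 replicate 3 and Myh8 in D14 replicate 2. They are the 250 bases before the gene start in RefSeq's GRCm38.p6 annotation, at chr8:123894776-123895025, minus strand (Acta1), chr11:67199852-67200101, plus strand (Myh1) and chr11:67276874-67277123, plus strand (Myh8). Capitals mark a CArG box, the site of serum response factor, in Acta1, a MEF2 site in Myh1 and Myh8, and a TATAAA box in Acta1 and Myh1.
Acta1: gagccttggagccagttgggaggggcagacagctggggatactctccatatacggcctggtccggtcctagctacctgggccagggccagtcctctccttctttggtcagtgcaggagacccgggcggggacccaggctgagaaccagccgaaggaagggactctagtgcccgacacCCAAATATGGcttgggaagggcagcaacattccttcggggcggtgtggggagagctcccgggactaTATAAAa
Myh1: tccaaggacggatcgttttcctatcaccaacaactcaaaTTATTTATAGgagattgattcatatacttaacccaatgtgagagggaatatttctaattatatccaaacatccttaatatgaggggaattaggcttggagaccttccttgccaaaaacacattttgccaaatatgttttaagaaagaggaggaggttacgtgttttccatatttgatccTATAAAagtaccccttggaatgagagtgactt
Myh8: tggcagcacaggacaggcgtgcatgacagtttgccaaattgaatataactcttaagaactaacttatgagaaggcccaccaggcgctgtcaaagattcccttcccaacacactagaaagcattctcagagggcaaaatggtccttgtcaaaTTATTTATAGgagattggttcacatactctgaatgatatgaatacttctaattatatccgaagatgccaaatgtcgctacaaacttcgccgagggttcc

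The CArG box of Acta1 began 73 bases before the start, and the MEF2 sites of Myh1 and Myh8 began 211 and 99 bases before it. Windows from 250 bases before to 50 after the start were at hand for 53 of the 63 muscle genes. In these a CArG box was searched as CCWWWWWWGG and a MEF2 site as YTAWWWWTAR, on both strands. W stands for A or T, Y for C or T and R for A or G, and sites that depart from these letters were not counted. A CArG box lay in 17% of muscle genes, against 1.81% of 27025 genes, and a MEF2 site in 15.1%, against 3.70%. The letters TATAAA on the gene's strand lay in 18.9%, against 9.77%, CATTCC on either strand in 30.2%, against 16.6%, and CAGCTG, an E-box, in 39.6%, against 18.3%. No CArG, MEF2 or TATAAA match overlapped another in the muscle genes. These matches describe the letters, not binding.

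The remaining skeletal genes fell between these patterns. Atp2a1, the calcium pump of fast fibres, had 2.55, 20.0 and 2.44 CPM at D14, against 10.4, 7.73 and 36.0 CPM at D0 (log2 ratio −1.11, SE 0.95; adjusted p = 0.608). That fold change was −0.12 without D0 replicate 3 and −2.84 without D14 replicate 2. Myoz1, a Z disc protein of fast fibres, had 2, 29 and 0 counts at D14, against 36, 92 and 244 counts at D0, with no overlap (−3.67, SE 1.23; adjusted p = 0.364). Actn3, the Z disc actinin of fast fibres, had 7, 112 and 13 counts at D14, against 64, 85 and 119 counts at D0 (−1.06, SE 0.92; adjusted p = 0.613). D14 replicate 2 was the second highest library for Actn3 and Atp2a1, but the fourth for Myoz1. Mybpc1, the slow myosin-binding protein C, had 0, 71 and 0 counts at D14, against 45, 47 and 137 counts at D0 (−1.75, SE 1.43; adjusted p = 0.593). The release channel Ryr1, the calcium store protein Casq1, the fast protein Mybpc2 and the M band protein Myom3 had fold changes of −0.34, −1.16, −0.97 and −0.46. Myoz3, with 0 to 5 counts at D14 and 8 to 18 at D0, was not tested.

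Of 13 further markers of skeletal fibres 10 were highest in D0 replicate 3, as 5068 of 17686 tested genes were, and none passed the test. Pvalb, the calcium buffer of fast fibres, had 0, 17 and 0 counts at D14, against 15, 36 and 184 counts at D0 (log2 ratio −3.88, SE 1.44; adjusted p = 0.368). Eno3, the muscle enolase and the most abundant of that list, had 21.6, 22.0 and 18.3 CPM at D14, against 16.1, 29.4 and 52.9 CPM at D0 (−0.67, SE 0.39; adjusted p = 0.475). Eno3 was lowest in D0 replicate 1 and even across D14, unlike Pvalb, which was at 0 in D14 replicates 1 and 3. Klhl41, a sarcomeric kelch protein and the next most abundant, had a fold change of −1.53 (SE 0.64; adjusted p = 0.392). In all, 6 of 13 such markers were tested, 6 were lower at D14, and 0 passed, with 24.1 to 40.3 CPM in sum at D14 and 31.9 to 103 CPM at D0. The myogenic factor Myf6 was at 0 in the 3 D14 libraries and at 2, 7 and 27 counts at D0, while Myod1 and Myog had at most 6 counts anywhere.

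Keratins of stratified squamous epithelium, as found in the oesophagus, whose muscle is largely skeletal in the mouse, had a similar order over the libraries. Krt13 had 0.290, 56.2 and 0.192 CPM at D14, against 12.7, 198 and 798 CPM at D0 (log2 ratio −4.15, SE 2.15; adjusted p = 0.449). Krt4, its partner, had 0, 977 and 0 counts at D14, against 177, 2931 and 10798 counts at D0. Both were highest in D0 replicate 3, where skeletal muscle genes peaked, and at or near 0 in D14 replicates 1 and 3. The part of such tissue in the skeletal muscle values was not tested.

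**Figure D3:**
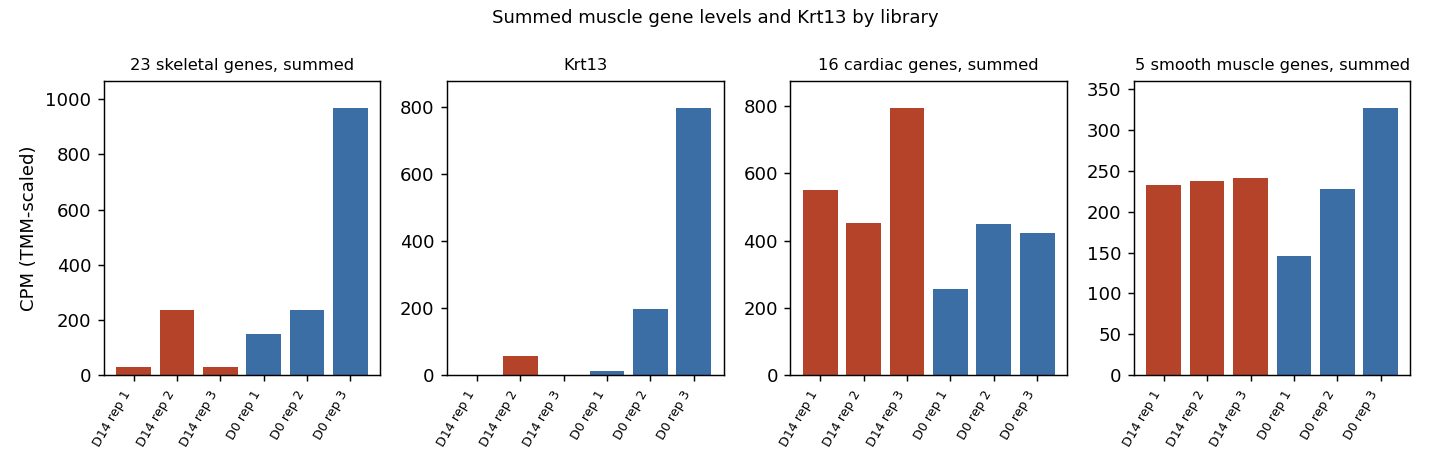
Summed CPM of the skeletal, cardiac and smooth muscle genes and the CPM of Krt13 in each library, D14 in red and D0 in blue, each panel on its own linear axis from 0. The skeletal sum and Krt13 are both highest in D0 replicate 3 (969 and 798 CPM), while the cardiac sum is highest in D14 replicate 3 (795 CPM) and the smooth muscle sums of D14 lie between 233 and 242 CPM.

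Cardiac genes were mostly higher at D14, with 13 of 15 tested genes positive and 0 past the test. Summed over the 16 genes they reached 551, 452 and 795 CPM at D14, against 255, 448 and 421 CPM at D0. The groups did not overlap in that sum, though D14 replicate 2 and D0 replicate 2 lay side by side. At an unadjusted p under 0.05 stood 6 of the 15 higher, where 5.48% of all tested genes were, and 1 lower, where 7.09% were. D14 replicate 3 was the highest library for 12 of the 16 genes and D0 replicate 1 the lowest for 10. Without D0 replicate 1 the median log2 fold change was 0.48 rather than 0.85.

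Myh6, the fast alpha heavy chain of atria and of adult mouse ventricles, had 123, 88.8 and 207 CPM at D14, against 53.1, 50.1 and 39.3 CPM at D0. Every D14 library was above every D0 library. The means were 140 ± 60.7 CPM at D14 and 47.5 ± 7.26 CPM at D0 (SD, n = 3 each). The fitted log2 fold change was 1.56 (SE 0.31), with an adjusted p of 0.303 by edgeR and 0.000401 by DESeq2. Leaving out 1 library at a time gave 1.16 to 1.799. Its neighbour Myh7, the slow beta heavy chain, on chromosome 14 from 54970684 to 54994626 next to Myh6 at 54941921 to 54966927, did not follow. It had 101, 80.5 and 87.0 CPM at D14, against 87.3, 90.1 and 102 CPM at D0 (log2 ratio −0.06, SE 0.15; adjusted p = 0.875). The ratio of Myh6 to Myh7 counts was 1.23, 1.104 and 2.38 at D14, against 0.609, 0.556 and 0.386 at D0. The antisense gene Mhrt, which overlaps Myh7, had 3 to 8 counts at D14 and 5 to 9 at D0. The chains are close paralogs, so some reads could be placed on either.

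Nppa, the atrial natriuretic peptide, was carried by 1 library, with 7.24, 5.74 and 79.2 CPM at D14, against 1.40, 2.24 and 2.39 CPM at D0. The groups did not overlap even without D14 replicate 3. The log2 fold change was 3.94 (SE 1.11; adjusted p = 0.350) with all libraries and 1.70 without D14 replicate 3. In D14 replicate 3 there were 0.383 Nppa counts per Myh6 count, against 0.0587 and 0.0646 in the other D14 libraries and 0.0263 to 0.0607 at D0. Bmp10, an atrial growth factor, had 17 counts in D14 replicate 3 and 0 in the other libraries.

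The atrial light chains did not separate the days. Myl7, the atrial regulatory light chain, had 59.9, 39.0 and 53.3 CPM at D14, against 13.8, 48.2 and 32.2 CPM at D0 (log2 ratio 0.69, SE 0.41; adjusted p = 0.482). Myl4, the atrial alkali light chain, had 71.7, 48.5 and 83.8 CPM at D14, against 22.4, 70.6 and 46.7 CPM at D0 (0.55, SE 0.40; adjusted p = 0.549). In both, D0 replicate 1 was lowest and D0 replicate 2 reached the D14 range. The ventricular light chains behaved otherwise. Myl2, the regulatory light chain of ventricles and slow fibres, had 0, 2 and 0 counts at D14, against 0, 0 and 96 counts at D0, and was not tested. Myl3, the alkali light chain of the same muscles, had 6.55, 13.8 and 3.91 CPM at D14, against 7.56, 21.7 and 73.2 CPM at D0 (−2.08, SE 0.83; adjusted p = 0.384). Without D0 replicate 3 the fold change of Myl3 was −0.85. Their peak in D0 replicate 3 is that of the skeletal genes, not of most other cardiac genes.

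Thin filament genes of the heart lay between. Actc1, the cardiac actin, had 48.0, 70.2 and 85.0 CPM at D14, against 20.9, 51.9 and 36.6 CPM at D0 (log2 ratio 0.89, SE 0.35; adjusted p = 0.379). Tnnt2, the cardiac tropomyosin-binding troponin, had 51.6, 34.6 and 59.6 CPM at D14, against 17.4, 44.2 and 30.6 CPM at D0 (0.66, SE 0.35; adjusted p = 0.447). D0 replicate 2 overlapped the D14 range in both. Tnni3, the cardiac inhibitory troponin, and Tnnc1, the calcium-binding one of heart and slow fibres, had fold changes of 0.67 (SE 0.40) and 0.85 (SE 0.44), the D14 range of Tnnc1 lying above that of D0. The thick filament protein Mybpc3 had a fold change of 1.40 (SE 0.56; adjusted p = 0.382) and the Z disc protein Myoz2 one of 0.33 (SE 0.38; adjusted p = 0.716).

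The 3 calcium handling genes counted as cardiac follow, and their ranges did not overlap, with D14 above as for 10.9% of all tested genes. Of 17 other tested genes of muscle calcium handling 2 had the D14 range above that of D0, 1 had it below, and such cardiac genes as Hrc, Trdn, Sln and Slc8a1 overlapped. Pln, phospholamban, the inhibitor of the calcium pump, had 8.63, 6.76 and 15.1 CPM at D14, against 2.15, 3.39 and 3.51 CPM at D0 (log2 ratio 1.75, SE 0.36; adjusted p = 0.316 by edgeR and 0.00212 by DESeq2). Ryr2, the cardiac calcium release channel, had 11.01, 11.1 and 22.4 CPM at D14, against 6.57, 4.22 and 2.11 CPM at D0 (1.78, SE 0.46; adjusted p = 0.347 by edgeR and 0.0107 by DESeq2). Casq2, which stores calcium in the reticulum, had 3.42, 3.06 and 8.40 CPM at D14, against 0.756, 2.81 and 2.39 CPM at D0 (1.32, SE 0.58; adjusted p = 0.401). All 3 were highest in D14 replicate 3, and without it the log2 fold change of Casq2 was 0.71. Pln lies within the span of Cep85l on the other strand, which had 904 to 1200 counts at D14 and 350 to 833 at D0. The sources used here do not give strand handling, so reads of the 2 genes may be mixed. The same holds for Tnnc1 and Nisch, Tnnc2 and Ube2c, Myl3 and Pth1r, and Atp2a1 and Rabep2, and Tnni3 overlaps Dnaaf3 on the same strand.

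Per kilobase of the longest annotated transcript, the most abundant cardiac gene was Myl7, with mean levels of 86.02 CPM per kilobase at D14 and 53.2 at D0. This order depends on the transcript used, of 3273 bases for Myl4, 3330 for Tnnt2 and 590 for Myl7. Behind Myl7 the order differed between the days. At D14 Actc1, Tnni3, Nppa and Myh6 followed at 46.0, 41.2, 35.5 and 22.9 CPM per kilobase, whereas at D0 Myl3, Tnni3, Actc1 and Myh7 followed at 30.4, 25.9, 24.8 and 14.9. Nppa had only 2.32 CPM per kilobase at D0, and Myl3 only 7.18 at D14. Skeletal Acta1 had 17.7 CPM per kilobase at D14 and 102 at D0, and smooth muscle Acta2 had 51.2 at D14 and 54.1 at D0.

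**Figure D4:**
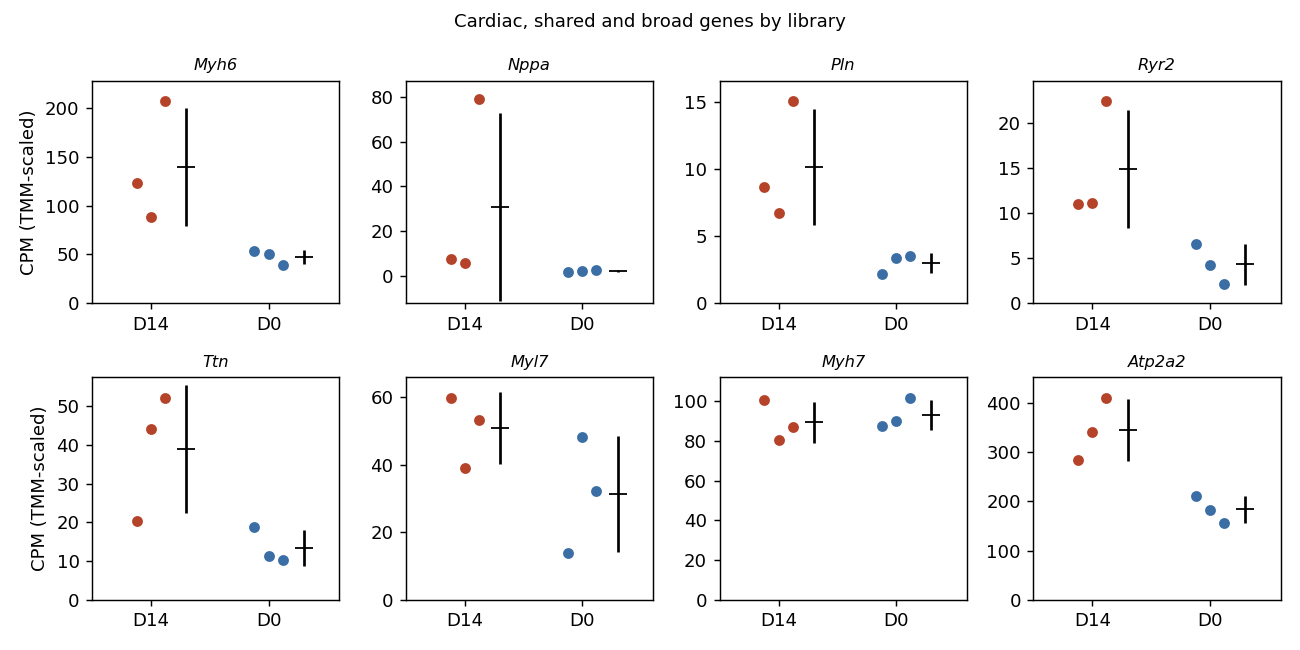
CPM of Myh6, Nppa, Pln, Ryr2, Ttn, Myl7, Myh7 and Atp2a2 in each library, D14 in red and D0 in blue, with a black mean and SD (n = 3) beside each group, each panel on its own linear axis. The D14 points lie above the D0 points for all but Myl7 and Myh7, and 1 library, D14 replicate 3, sets the mean of Nppa.

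The promoters of 4 cardiac genes are given beside these values, 3 of genes that peaked in D14 replicate 3 and 1, Myl7, of a gene that did not. They lie at chr14:54966608-54966857, minus strand (Myh6), chr2:114052876-114053125, minus strand (Actc1), chr11:5898783-5899032, minus strand (Myl7) and chr4:148000472-148000721, plus strand (Nppa), again the 250 bases before the RefSeq start in GRCm38.p6. Capitals mark a CArG box in Actc1 and Myl7 and TATAAA in Nppa. TATAAA also lay past the bases printed, beginning at base 2 of the gene in Myh6 and base 34 in Actc1.
Myh6: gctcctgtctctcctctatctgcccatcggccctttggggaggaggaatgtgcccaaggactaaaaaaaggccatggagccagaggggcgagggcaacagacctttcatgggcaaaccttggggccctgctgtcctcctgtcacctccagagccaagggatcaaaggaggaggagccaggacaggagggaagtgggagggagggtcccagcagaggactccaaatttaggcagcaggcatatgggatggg
Actc1: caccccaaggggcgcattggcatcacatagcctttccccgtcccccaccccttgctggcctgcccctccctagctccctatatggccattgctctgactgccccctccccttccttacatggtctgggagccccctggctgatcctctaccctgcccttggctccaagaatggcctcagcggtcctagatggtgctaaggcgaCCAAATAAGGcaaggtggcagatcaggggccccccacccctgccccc
Myl7: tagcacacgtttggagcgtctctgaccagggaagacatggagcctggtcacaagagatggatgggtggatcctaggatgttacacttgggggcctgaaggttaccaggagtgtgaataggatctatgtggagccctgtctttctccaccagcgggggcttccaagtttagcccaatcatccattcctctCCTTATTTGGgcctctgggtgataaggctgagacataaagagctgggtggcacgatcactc
Nppa: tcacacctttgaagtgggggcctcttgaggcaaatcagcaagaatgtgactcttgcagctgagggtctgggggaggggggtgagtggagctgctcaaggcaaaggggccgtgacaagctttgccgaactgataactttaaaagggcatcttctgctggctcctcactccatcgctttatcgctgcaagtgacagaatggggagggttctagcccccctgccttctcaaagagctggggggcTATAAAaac

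Of the 16 cardiac genes 3 held a CArG box and 3 a MEF2 site within their 300 base windows, and of the 18 skeletal genes with a window 3 and 4 did. The Myh6 window held neither in the letters searched.

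Cardiomyocyte markers outside the list gave a mixed picture. Of 21 listed 16 were tested, 8 higher and 8 lower at D14 with 0 called, a median log2 fold change of −0.003 and sums of 343 to 384 CPM at D14 and 233 to 669 CPM at D0. The 8 lower ones were Mb, Sln, Tcap, Cox6a2, Fabp3, Csrp3, Cox8b and Smpx. All of these were highest in D0 replicate 3, as 5068 of 17686 tested genes were, and so was Des among the higher ones. Skeletal muscle genes peaked in that library too, and their part in these marker values was not tested. Des, the intermediate filament of all muscle types, and Ankrd1, a stretch-responsive nuclear protein, were the most abundant, at 0.02 (SE 0.26) and 0.24 (SE 0.23). Mb, myoglobin, which slow skeletal fibres share, had 15.2, 18.1 and 29.2 CPM at D14, against 13.6, 42.8 and 135 CPM at D0, highest in D0 replicate 3. Tbx20, a cardiac transcription factor named after its values were seen, had 2.09, 2.49 and 4.17 CPM at D14, against 1.05, 0.958 and 0.913 CPM at D0 (1.57, SE 0.37; adjusted p = 0.333). Nkx2-5, a cardiac transcription factor, was near the detection limit everywhere, at 0.255 to 0.406 CPM at D14 and 0 to 0.256 CPM at D0. The part of heart or pulmonary vein muscle in the cardiac values was not tested.

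The genes shared by both striated types split along the same lines. Ckm, the muscle creatine kinase, had 21.6, 53.9 and 25.7 CPM at D14, against 32.5, 78.8 and 302 CPM at D0 (log2 ratio −2.03, SE 0.80; adjusted p = 0.380), and −0.72 without D0 replicate 3. Ttn, titin, the spring between Z disc and M band, went the other way with 20.4, 44.2 and 52.2 CPM at D14, against 18.7, 11.3 and 10.2 CPM at D0. Its D14 range lay above that of D0 (1.53, SE 0.38; adjusted p = 0.347 by edgeR and 0.00902 by DESeq2). Actn2, the Z disc actinin of heart and skeletal muscle, had 7.53, 10.1 and 14.7 CPM at D14, against 4.48, 4.41 and 9.34 CPM at D0 (0.83, SE 0.38; adjusted p = 0.413). The M band proteins Myom2 and Myom1 had fold changes of 0.77 (SE 0.28; adjusted p = 0.365) and 0.20 (SE 0.29; adjusted p = 0.766), and only Myom2 had ranges that did not overlap. Myh7b, with 2 to 8 counts at D14 and 2 to 10 at D0, was not tested.

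**Figure D5:**
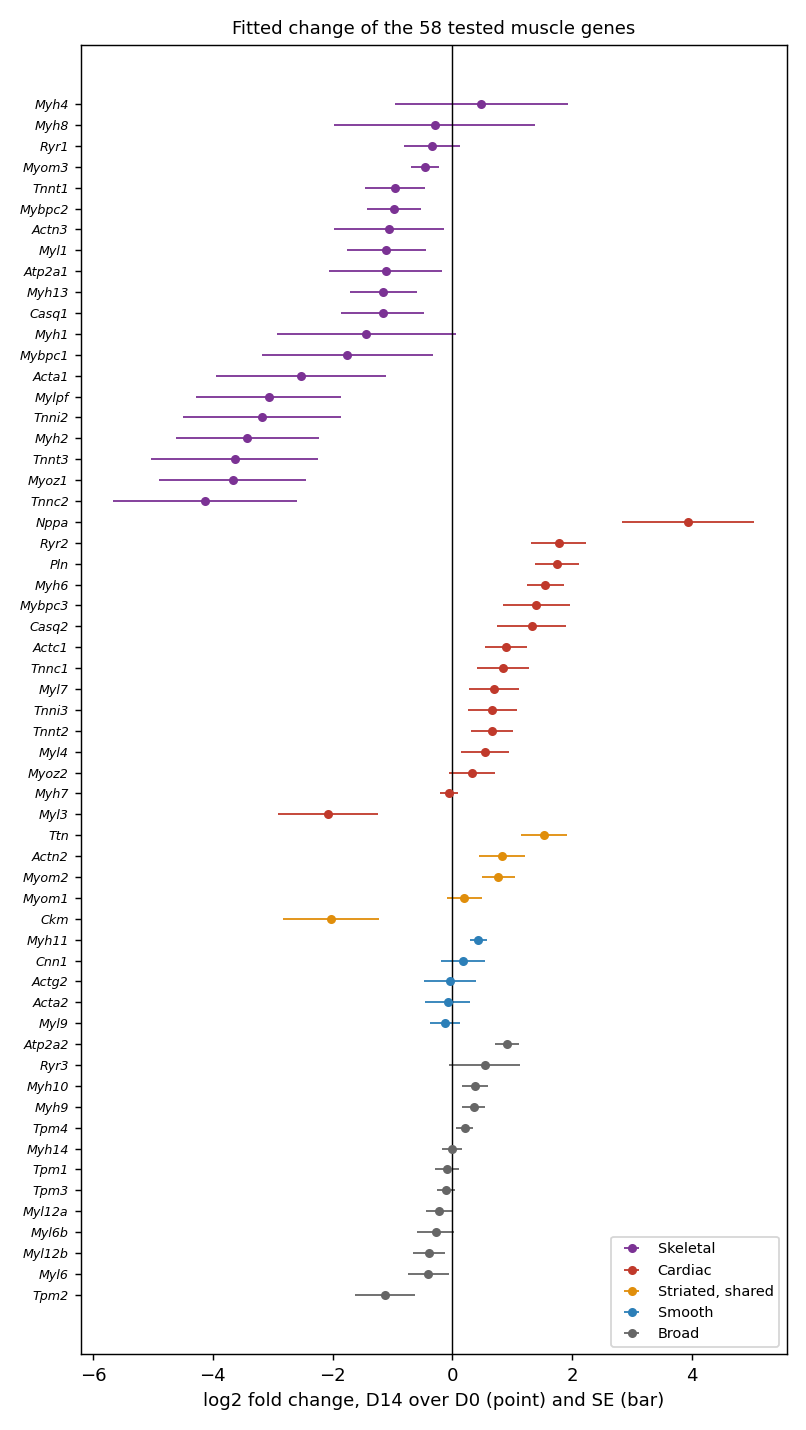
Fitted log2 fold change of D14 over D0 for the 58 tested muscle genes, with points for the estimate, bars for its standard error and colours for the muscle type. Skeletal genes reach from 0.48 (Myh4) to −4.13 (Tnnc2), cardiac genes from 3.94 (Nppa) to −2.08 (Myl3), and the 5 smooth muscle genes from 0.43 to −0.11, none past an adjusted p of 0.05.

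Smooth muscle genes had no common direction, 2 of 5 being higher and 3 lower at D14, with 0 called. Their median of −0.04 turned positive under the replicate block (0.14) and with the transcript length trend removed (0.21). Their sum was 233, 238 and 242 CPM at D14, against 146, 228 and 327 CPM at D0, so that the D0 libraries enclosed the D14 ones. Acta2, the alpha actin of smooth muscle and myofibroblasts, had 94.5, 108 and 110 CPM at D14, against 53.4, 102 and 175 CPM at D0 (log2 ratio −0.08, SE 0.38; adjusted p = 0.934), and 0.43 without D0 replicate 3. Myh11, the smooth muscle heavy chain, had 47.9, 45.7 and 51.9 CPM at D14, against 39.8, 33.7 and 34.3 CPM at D0. It was the 1 smooth muscle gene with ranges that did not overlap (0.43, SE 0.14; adjusted p = 0.364). With the trend of transcript length removed its fold change was 0.22.

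Actg2, the gamma actin of visceral smooth muscle, had 10.1, 14.7 and 11.99 CPM at D14, against 5.35, 12.1 and 20.4 CPM at D0 (log2 ratio −0.04, SE 0.43; adjusted p = 0.971). Cnn1, calponin, an actin-binding regulator, had 16.6, 19.3 and 19.1 CPM at D14, against 7.50, 21.7 and 19.4 CPM at D0 (0.18, SE 0.36; adjusted p = 0.837). Myl9, the regulatory light chain of smooth muscle, had 63.6, 50.3 and 48.5 CPM at D14, against 39.9, 58.1 and 77.9 CPM at D0 (−0.11, SE 0.25; adjusted p = 0.853). D0 replicate 1 was the lowest library in 4 of the 5 genes, and D0 replicate 3 the highest in 3. The ratio of Acta2 to Myh11 counts was 1.97, 2.36 and 2.13 at D14, against 1.34, 3.02 and 5.11 at D0.

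The Myl9 promoter is shown as the smooth muscle case. Of 3 smooth muscle genes with a window, Myl9 was the 1 with a CArG box in the letters searched (capitals). That box begins 161 bases before the start, within chr2:156775214-156775463, plus strand, in GRCm38.p6.
Myl9: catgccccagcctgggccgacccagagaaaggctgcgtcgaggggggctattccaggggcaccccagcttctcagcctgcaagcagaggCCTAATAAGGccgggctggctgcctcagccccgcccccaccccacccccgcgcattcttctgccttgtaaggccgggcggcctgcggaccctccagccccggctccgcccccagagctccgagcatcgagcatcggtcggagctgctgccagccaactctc

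Further genes of contraction control, a list not confined to smooth muscle, were mostly higher at D14, 17 of 19 tested. Their median log2 fold change was 0.41, with 0 called. Tagln2, transgelin 2, and Cnn2, calponin 2, were the most abundant, at 0.14 (SE 0.16) and −0.19 (SE 0.18). In 10 of the 19 the D14 range lay above that of D0, as it did for 10.9% of all tested genes. D0 replicate 3 had the lowest sum of this list, 2542 CPM, against 3371 to 3734 CPM at D14 and 3082 and 3091 CPM in the other D0 libraries. It was the lowest library for 12 of the 20 genes listed, as for 5269 of 17686 tested genes. Smooth muscle markers outside the list, led by Npnt and Mylk, at 0.51 (SE 0.29) and 0.41 (SE 0.28), were higher in 7 of 10. Mylk, Cald1, Tagln, Smtn and Lmod1 are both in these markers and in the contraction genes above, so the counts are not separate. Over all tested genes 8286 of 17686 were higher at D14. Pericyte markers, led by Pdgfrb and Notch3, at 0.60 (SE 0.41) and 0.65 (SE 0.38), were higher in 7 of 8, with sums of 434 to 471 CPM at D14 and 233 to 426 CPM at D0. Fibroblast and myofibroblast markers, led by Col3a1 and Col1a1, at −0.13 (SE 0.19) and −0.02 (SE 0.15), were higher in 2 of 8. None of these lists had a call, and their part in the smooth muscle values was not tested.

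The broad genes were the most even, with a median standard deviation of 0.29 within groups and 0 calls among 13. Atp2a2, the calcium pump of heart, slow fibres and, as another splice form, of most cells, had 284, 341 and 411 CPM at D14, against 212, 183 and 156 CPM at D0. The ranges did not overlap and the log2 fold change was 0.91 (SE 0.20; adjusted p = 0.319 by edgeR and 0.00546 by DESeq2). Myh9 and Myh14, non-muscle heavy chains, had 847 to 996 and 503 to 529 CPM at D14, against 578 to 826 and 435 to 580 CPM at D0. Their fold changes were 0.35 (SE 0.19; adjusted p = 0.456) and −0.01 (SE 0.17; adjusted p = 0.989). Myh10, also a non-muscle chain, stood at 0.38 (SE 0.22).

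Tpm2, the beta tropomyosin of skeletal and smooth muscle, had 33.2, 42.7 and 24.6 CPM at D14, against 32.6, 52.5 and 134 CPM at D0 (log2 ratio −1.12, SE 0.50; adjusted p = 0.407), again with D0 replicate 3 far above the rest, and −0.34 without it. The other tropomyosins Tpm1, Tpm3 and Tpm4 stood at −0.09, −0.11 and 0.20. The light chains Myl6, Myl12a, Myl12b and Myl6b stood at −0.40, −0.23, −0.39 and −0.28. Myl12b had 520 CPM in D14 replicate 1 and 275 and 286 CPM in the other D14 libraries, against 440 to 493 CPM at D0. Ryr3, a release channel of low level in many tissues, had 1.33 to 1.92 CPM at D14 and 0.351 to 2.21 CPM at D0 (0.54, SE 0.59).

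Other proteins of the muscle apparatus gave no call either. Of 27 genes of the Z disc, M band and costamere 16 were higher at D14 and 11 lower, with a median log2 fold change of 0.05, led by Fhl1 at 0.01 (SE 0.20) and Capzb at 0.05 (SE 0.17). Of 17 tested calcium handling genes 8 were higher and 9 lower, with a median of −0.008, and Asph stood at 0.14 (SE 0.17). Of 13 tested muscle transcription factors 9 were higher and 4 lower, with a median of 0.47, led by Mef2a at 0.09 (SE 0.34) and Mef2d at 0.18 (SE 0.19). Among these 13, 2 had the D14 range above that of D0 and 1 had it below, where 10.9% and 10.7% of all tested genes did. The 1 below was Gata6, at −0.42 (SE 0.14; adjusted p = 0.364). Srf, the factor that binds CArG boxes, was named after its values were seen and was 1 of the 2 above. Srf had 87.2, 105 and 81.1 CPM at D14, against 60.7, 71.8 and 53.7 CPM at D0 (0.56, SE 0.17; adjusted p = 0.363). Myocd, its smooth and cardiac muscle coactivator, had 0.701 to 1.41 CPM at D14 and 0 to 0.814 CPM at D0.

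Transcript length moved with these values. In D0 replicate 3, relative to the other D0 libraries, longer transcripts were lower, with a Spearman rho of −0.46 across 17314 tested genes, −0.66 across 20 skeletal genes and −0.56 across 15 cardiac genes. Genes within a library share its depth and are not replicates. By the fitted trend, transcripts of 8000 bases stood at −0.445 (log2 scale) in D0 replicate 3 relative to the mean over libraries, and those of 1000 bases at 0.371. For D14 over D0 the rho was 0.36 across all genes, 0.54 across skeletal genes and 0.06 across cardiac genes. With the trend removed, a setting chosen after seeing the data, the fold changes of the long genes Myh6, Ryr2 and Ttn were 1.37, 1.48 and 1.09, those of the short Nppa and Pln 4.25 and 1.87, and 0 muscle genes were called.

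Within the skeletal genes, short and long transcripts also stood in different ratios between libraries. The ratio of Tnnt3 to Myh8 counts, a short transcript over a long one, was 0.405 in D14 replicate 2, against 0.843, 3.24 and 7.95 in the D0 libraries. For Acta1 over Myh1 it was 3.77 in D14 replicate 2, against 4.22, 9.87 and 9.47 in the D0 libraries. D0 replicate 2 thus reached the ratio of D0 replicate 3, while its own fitted length trend was near flat. That trend stood at 0.043 for 1000 bases and 0.004 for 8000 bases in D0 replicate 2. The cause of these ratios was not tested. D14 replicate 2 minus D0 replicate 3 had a rho with transcript length of 0.62 over the 20 skeletal genes and 0.44 over all tested genes. Members of the skeletal, cardiac and smooth muscle types nonetheless tended to move together, and broad genes did not. The median correlation of log2 CPM over the 6 libraries was taken between pairs of genes. It was 0.86 for the skeletal, 0.68 for the cardiac, 0.71 for the smooth muscle, 0.55 for the shared striated and 0.08 for the broad genes. These values describe 190, 105, 10, 10 and 78 pairs that share the same libraries, and no value over all tested genes was taken beside them.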

How the data were processed

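The data are bulk RNA sequencing of lungs, 3 libraries per day. Per the labels' protocols, RNA was taken up in TRIzol and made into libraries with an NEB kit. The extraction text is worded for BMDMs, although tissue and titles say lungs. The submitters' processing notes list GRCm38 with CASAVA 1.8, HISAT2 2.1.0, StringTie 1.3.4b and edgeR, without saying what each was used for, and strand handling is not given in the sources used here. The authors deposited a table of estimated counts by gene, unscaled. All its values were whole, so rounding changed none. Of 29757 lines, 4 empty or displaced ones were left out, and 50 that repeat a symbol were kept apart.

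Differences were fitted in edgeR 4.0.16 (R 4.3.3) on the 6 libraries, with TMM scaling, its default low count filter and a two-sided quasi-likelihood F test with robust dispersion, without further terms. Adjustment covered 17686 genes at a threshold of 0.05. The standard error is the fold change over the square root of F. The muscle genes, their types and the other lists were chosen with earlier results of these data known. Genes named with values were those past the threshold, the 6 most abundant of each type and the next 2 by p, and those that varied at least 10-fold at a mean of at least 1 CPM, and the 2 most abundant of each other list. Some genes of these lists are not reported here. The rest were named to account for every gene, and others, such as Srf, Tbx20 and Bmp10, after their values were seen. Positions and transcript lengths come from GENCODE M21, which matched 62 of 63 symbols, and promoters from RefSeq. The fit was also run on simulated counts drawn without library differences in tissue content or transcript length, so that run does not speak for such differences. Alternatives were DESeq2 1.42.0, RLE or no scaling, no low count filter, a replicate block, each library left out and, added after seeing the data, removal of the length trend.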

Additional observations from a re-analysis of the deposited data

How the results depend on the processing

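Over all genes, 6 calls became 26 with no filter on low counts, 15 with the length trend removed, 247 with DESeq2, 0 with the replicate number as a block and 0 to 22 with 1 library left out. Muscle gene calls stayed at 0 in these settings except DESeq2, which called 5. The median log2 fold change of cardiac genes stayed positive throughout, at 0.48 to 1.20 with 1 library left out. That of skeletal genes was −2.37 under the replicate block and −4.94 to −0.62 with 1 library left out, the lowest without D14 replicate 2. That of smooth muscle genes was 0.14 under the block, 0.21 with the length trend removed and −0.32 to 0.40 with 1 library left out. Signs turned for Myh4 under the block (−1.54), for Acta2 and Actg2 under the block (0.078 and 0.14) and with the length trend removed (0.086 and 0.21), and with that trend removed for Myl9 (0.12) and Myom1 (−0.013). Myh14 turned with RLE factors (0.0071), no filter (0.010), the block (0.0050) and DESeq2 (0.016). With 1 library left out, fold changes spanned 0 for Myh8 (−10.63 to 0.30), Myh4 (−7.37 to 1.08), Myh7 (−0.14 to 0.015), Acta2 (−0.41 to 0.43), Myl9 (−0.32 to 0.15), Cnn1 (−0.16 to 0.45), Actg2 (−0.40 to 0.50) and Myh14 (−0.11 to 0.081). The causes were not tested. Same-numbered libraries had correlations of deviations of 0.12, −0.06 and −0.10. With so few libraries per day these values cannot decide whether the numbers pair them.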

Other observations

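Genes of 2 other tissues near the lung were uneven over the libraries in orders of their own. Ucp1, the uncoupling protein of brown fat, had 0.0579, 20.6 and 174 CPM at D14, against 0.814, 15.2 and 1.40 CPM at D0 (log2 ratio 3.48, SE 1.93; adjusted p = 0.467, edgeR). Its peak was in D14 replicate 3, the library with most Nppa and Myh6. Adipoq, the fat hormone adiponectin, had 2.95, 6.70 and 79.2 CPM at D14, against 2.91, 23.3 and 63.1 CPM at D0. Rag1, a recombinase of developing lymphocytes as in the thymus, had 10, 43 and 201 counts at D14, against 220, 4 and 5 counts at D0. Cd8b1, the most abundant of the thymus genes, had a fold change of 0.03 (SE 0.40). Haemoglobin Hba-a1 had 6969 to 14860 CPM at D14 and 3963 to 23620 CPM at D0, again highest in D0 replicate 3, and Hbb-bt a fold change of −0.54 (SE 0.53). Among endothelial genes, Cdh5 and Cldn5 had fold changes of 0.65 (SE 0.36) and 0.71 (SE 0.18), and Scgb1a1, of club cells, one of 0.62 (SE 0.35). By edgeR at an adjusted p of 0.05, 0 genes were called among the 4 of brown fat, 3 of thymus, 4 of red cells, 3 of endothelium and 8 of lung epithelium, where 0.0339% of all tested genes were. At an unadjusted p under 0.05 stood 2 genes of the endothelium, both higher at D14, and 0 of the other lists, where 12.6% of all tested genes did. The part of such tissue in the muscle gene values was not tested.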
